A study of Mus musculus with 9 samples.

Results

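The C1q/TNF-related proteins are secreted relatives of adiponectin, and 8 of their genes (C1qtnf1 to C1qtnf7 and C1qtnf12) are described here among 18193 genes that had a probe set of their own. They were found by the gene symbol that the array platform's annotation gives, and 7 of the 8 had at least 1 probe set naming no other gene. The only probe set found for C1qtnf5 names Mfrp as well and is given separately, as a shared probe set. Each gene's main probe set was chosen by the highest mean over all 9 arrays, a value that uses no difference between gates, and the genes themselves were listed with earlier results of these data known. Cells of neonatal back skin (postnatal day 2) were separated in a cell sorter into 3 gates, and the RNA of each gate was put on 1 array for each of 3 mice, numbered 2, 4 and 5. GFP+CD133+ cells (gate R3) are assigned by the labels to dermal papillae of guard, awl and auchene hairs. GFP-CD133+ cells (gate R2) are assigned to dermal papillae of zigzag hairs, and GFP-CD133- cells (gate R1) to the dermis left without papilla cells. Each mouse gave an array for every gate. The sources used here give neither the mouse line nor the promoter behind GFP. GFP in sorts of this kind is known as a reporter of Sox2, and CD133 is the product of Prom1.

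Most C1q/TNF-related proteins carry a collagen-like stalk and a globular C1q domain at the carboxyl end, through which they assemble into trimers, as adiponectin and complement C1q do. They are known as hormone-like factors of fat, muscle, cartilage and vessel wall that act on glucose and lipid metabolism, matrix and inflammation. The dermal papilla is the mesenchymal cluster at the base of the hair follicle that instructs the epithelium around it.

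The genes lie, in GRCm38.p6, at chr11:118428457-118451782 (C1qtnf1), chr11:43474306-43491525 (C1qtnf2), chr15:10952119-10980162 (C1qtnf3), chr2:90882788-90890526 (C1qtnf4), chr9:44101770-44109187 (C1qtnf5), chr15:78523346-78532170 (C1qtnf6), chr5:43515425-43619126 (C1qtnf7) and chr4:155962312-155966629 (C1qtnf12). Promoter windows of 3 of the genes are shown because these genes gave the steepest fall (C1qtnf3), a fall of the same order across the gates (C1qtnf2) and the only rise (C1qtnf7). They run from 250 bases before to 50 bases after the start site that the RefSeq table takes. That site need not be the first base of the gene. Windows were found for 5 of the 8 genes, and the 3 shown are on the plus strand (GRCm38.p6). The windows lie at chr15:10952082-10952381 for C1qtnf3, chr11:43474056-43474355 for C1qtnf2 and chr5:43515319-43515618 for C1qtnf7. Capitals mark a match to TATAAA.
C1qtnf3: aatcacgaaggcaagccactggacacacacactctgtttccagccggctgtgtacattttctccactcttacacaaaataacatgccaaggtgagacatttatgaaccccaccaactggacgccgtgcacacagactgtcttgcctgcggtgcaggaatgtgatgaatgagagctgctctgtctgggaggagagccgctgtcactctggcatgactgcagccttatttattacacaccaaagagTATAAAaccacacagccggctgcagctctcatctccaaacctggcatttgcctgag
C1qtnf2: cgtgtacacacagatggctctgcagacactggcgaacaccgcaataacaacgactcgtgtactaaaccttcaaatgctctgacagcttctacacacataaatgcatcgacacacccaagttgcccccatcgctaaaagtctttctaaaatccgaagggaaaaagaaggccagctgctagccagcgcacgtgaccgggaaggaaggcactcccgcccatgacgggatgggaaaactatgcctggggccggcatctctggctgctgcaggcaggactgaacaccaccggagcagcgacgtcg
C1qtnf7: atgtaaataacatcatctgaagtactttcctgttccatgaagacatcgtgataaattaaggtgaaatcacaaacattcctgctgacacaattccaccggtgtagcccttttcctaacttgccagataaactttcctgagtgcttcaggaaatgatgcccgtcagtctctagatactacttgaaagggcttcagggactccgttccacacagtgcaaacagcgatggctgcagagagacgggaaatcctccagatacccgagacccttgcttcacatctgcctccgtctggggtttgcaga
Both strands were searched for 3 motifs, and no matches overlapped. The first was the TATA box, written TATAAA, which the C1qtnf3 window held from base -6 to base -1 before the start, and which 13.6% of all 32851 promoter windows of the same length held. The next was the core of TCF/LEF sites, spelled CTTTGA, held by 16.0% of the windows. The last was the core of SOX sites, spelled CATTGT, held by 12.6%. The windows of C1qtnf2 and C1qtnf7 held none of the 3. A match is a stretch of letters and not a binding site.

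The levels of the sorting markers matched the gates in part. Sox2 averaged 10.66 ± 0.12 in R3, 7.08 ± 0.61 in R2 and 4.19 ± 0.34 in R1 (log2 expression value, SD, n = 3 each). Prom1 averaged 10.32 ± 0.19 in R3, 11.85 ± 0.04 in R2 and 7.43 ± 0.36 in R1. The arrays' medians lay between 6.13 and 6.20. A guide to background, taken from 44 probe sets of olfactory receptor genes that skin mesenchyme is not known to use, was set per array at their 95th percentile and lay between 5.14 and 5.46. A gene is called at or under the guide in a gate where its mean over the 3 arrays is no higher than 5.46, the highest of these values, unless single arrays are named. Marker lists followed the labels in part. The mean level of 12 dermal papilla genes lay between 10.48 and 10.70 on the R3 arrays, 10.24 and 10.33 on the R2 arrays, and 8.46 and 8.76 on the R1 arrays. Other cell types moved with the gates as well. Schwann and glial genes were at 8.70 to 8.98 in R3, 5.42 to 5.72 in R2 and 6.68 to 6.97 in R1. Endothelial genes were at 5.80 to 6.20 in R3, 8.36 to 8.74 in R2 and 6.56 to 6.90 in R1, with the means of Tie1, Emcn, Esam and Robo4 at or under the background guide in R3 and that of Tie1 in R1. Keratinocyte genes were at 6.95 to 7.96 in R3, 7.17 to 7.36 in R2 and 10.23 to 10.75 in R1. For beta-actin the 3′ control signal exceeded the 5′ one, a measure of RNA integrity, by a log2 difference that averaged 0.146 in R3, 0.156 in R2 and 0.053 in R1. For Gapdh the same difference averaged 2.84 in R3, 2.68 in R2 and 2.85 in R1, and the gates overlapped.

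**Figure D1:**
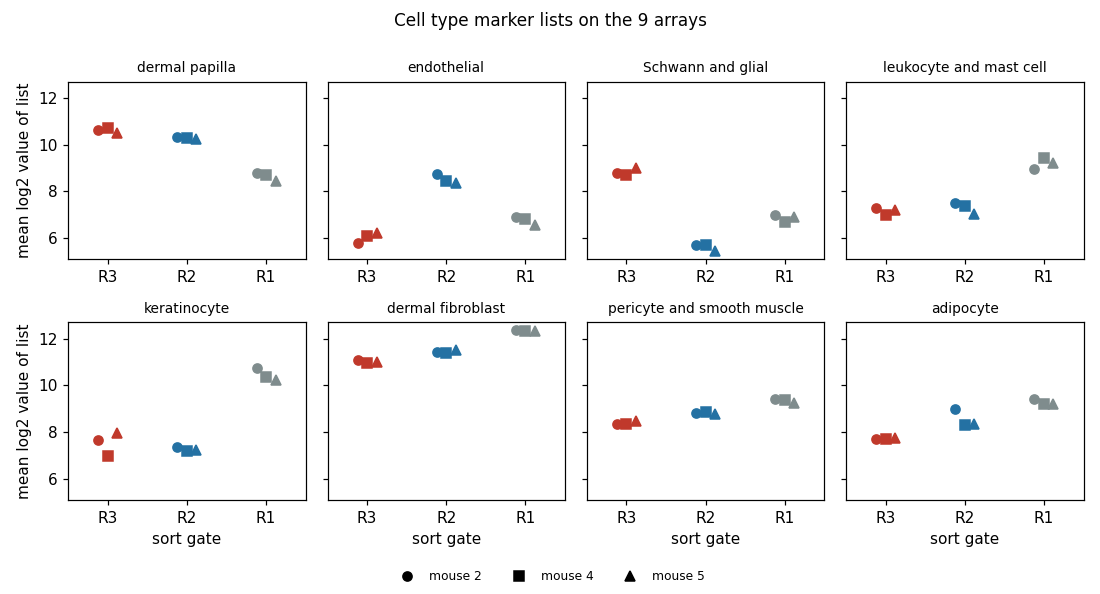
Mean log2 expression value of 8 cell type marker lists on each array (y axis) by sort gate (x axis), with symbols for the mouse. The R1 arrays stand above both papilla gates for keratinocyte, leukocyte and mast cell, dermal fibroblast, pericyte and smooth muscle, and adipocyte genes. The R2 arrays stand highest for endothelial genes, and the R3 arrays for dermal papilla genes and for Schwann and glial genes.

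C1qtnf3, known in the mouse as cartducin or CTRP3 and first described in growing cartilage, set the gates furthest apart. Its log2 values were 5.33, 4.51 and 6.37 in R3 (mice 2, 4 and 5), 7.49, 6.80 and 7.91 in R2, and 10.22, 10.15 and 10.65 in R1. The order was R1 over R2 over R3 without overlap, and 2 of the 3 R3 arrays were under the highest background guide, of which that of mouse 4 was also under its own. Set against R2, C1qtnf3 in R3 was lower 4.00-fold (log2 change -2.00, standard error 0.43, limma adjusted p = 0.0291, lower in 3 of 3 mice). It was 7.65-fold lower in R2 than in R1 (log2 change -2.94, standard error 0.43, adjusted p = 0.00197). Between R3 and R1 the log2 change was -4.94 (standard error 0.43, adjusted p = 6.75e-05), a 30.6-fold difference that rests on dim R3 signals.

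The R3 to R2 call of C1qtnf3 was lost without R3 replicate 2 (adjusted p = 0.0897), R3 replicate 4 (0.0758), R2 replicate 2 (0.0948) or R2 replicate 5 (0.0906), where replicates carry the mouse number. It was also lost when the 6 arrays of these gates were fitted alone (adjusted p = 0.072), and the adjusted p ranged from 0.00458 to 0.0948 over the 17 alternatives. Its change from R1 stayed called in R3 and in R2 under all 17.

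C1qtnf2, a family member studied in mouse lipid metabolism, showed the same order of gates with less spread. It stood at 7.75, 7.49 and 7.71 in R3, 8.64, 8.53 and 8.37 in R2, and 9.76, 9.86 and 9.69 in R1. No gate overlapped another. Set against R2, C1qtnf2 in R3 was lower 1.82-fold (log2 change -0.86, standard error 0.13, adjusted p = 0.00426), and R2 was 2.39-fold lower than R1 (log2 change -1.26, standard error 0.13, adjusted p = 0.000245). It was 4.34-fold lower in R3 than in R1 (log2 change -2.12, adjusted p = 8.47e-06), and all of these calls held under the 17 alternatives.

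C1qtnf2 and C1qtnf3 were the 2 of 7 genes called lower in R3 than in R2, a call made for 3.06% of all genes, and 0 were called higher, against 1.97% of all genes. At an unadjusted limma p under 0.05 the same 2 genes passed and no further one. This looser threshold was passed by at least 2080 and fewer than 3736 of all 18193 genes. In the limma ranking of this comparison Cdh13, which passed, held rank 2080, and the C1q-domain gene Col8a1, which did not, held rank 3736. The shares of 3.06% and 1.97% belong to the adjusted calls and are no measure for the count at the looser threshold. The median log2 change of the 7 genes was -0.01, the same as that of all genes. In this comparison 10 of 10 endothelial, 3 of 10 dermal fibroblast, 2 of 10 pericyte and smooth muscle and 3 of 7 adipocyte markers were lower in R3, and 8 of 8 Schwann and glial markers were higher. The mean level of the dermal fibroblast list ran from 10.96 to 11.10 in R3 and from 11.40 to 11.52 in R2. That of the adipocyte list ran from 7.69 to 7.74 in R3 and was 9.004, 8.30 and 8.35 on the R2 arrays of mice 2, 4 and 5, the first standing apart, and that of the pericyte and smooth muscle list from 8.32 to 8.45 in R3 and from 8.79 to 8.84 in R2. The part of these other cells in the falls of C1qtnf2 and C1qtnf3 was not tested, and in sorted bulk RNA fewer cells of a type and less RNA per cell cannot be told apart.

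**Figure D2:**
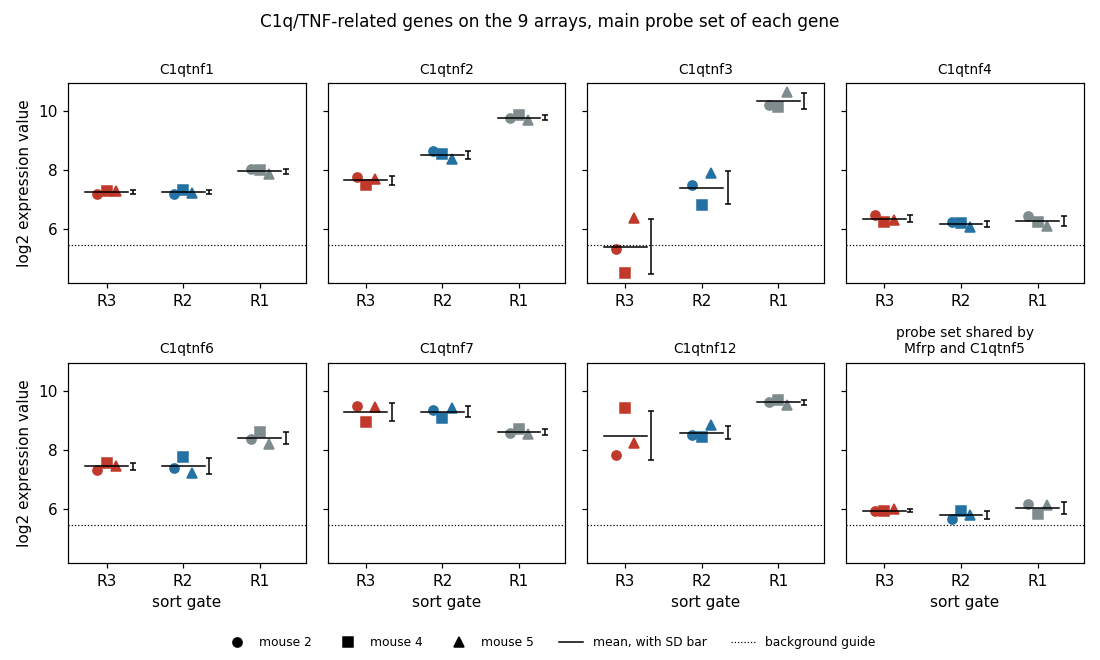
Log2 expression value of the main probe set of 7 C1q/TNF-related genes and of the probe set shared by Mfrp and C1qtnf5 (y axis) on the 9 arrays by sort gate (x axis). Symbols give the mouse, long bars the gate mean, short bars the SD (n = 3), and the dotted line the highest background guide of 5.46. C1qtnf2 and C1qtnf3 step up from R3 through R2 to R1, while C1qtnf7 is lowest in R1.

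On their main probe sets, C1qtnf1 and C1qtnf6 shared another pattern, high in R1 and level between both papilla gates. C1qtnf1 (CTRP1), known from vessel wall and fat as an inhibitor of collagen-induced platelet aggregation, stood at 7.19, 7.28 and 7.30 in R3, 7.20, 7.32 and 7.23 in R2, and 8.03, 7.98 and 7.87 in R1. The R3 and R2 arrays overlapped, and every R1 array was above both. It was 1.64-fold lower in R2 than in R1 (log2 change -0.71, standard error 0.11, adjusted p = 0.00263) and 1.63-fold lower in R3 than in R1 (log2 change -0.71, standard error 0.11, adjusted p = 0.00194). The other C1qtnf1 probe set was almost as bright, with a mean over the 9 arrays of 7.478 against 7.489. That probe set was lower in R3 than in R2 without overlap, as given below, so the level pattern holds for the main one only.

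C1qtnf6 (CTRP6), which restrains the alternative complement pathway in mouse arthritis, stood at 7.30, 7.54 and 7.46 in R3, 7.38, 7.76 and 7.20 in R2, and 8.36, 8.61 and 8.19 in R1. Here too R3 and R2 overlapped and R1 lay above both. C1qtnf6 was 1.92-fold lower in R2 than in R1 (log2 change -0.94, standard error 0.17, adjusted p = 0.00619) and 1.94-fold lower in R3 than in R1 (log2 change -0.95, standard error 0.17, adjusted p = 0.00412). Between R3 and R2 the 95% interval of the log2 change ran from -0.40 to 0.37 for C1qtnf6 and from -0.24 to 0.25 for C1qtnf1 on its main probe set.

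C1qtnf7 (CTRP7), whose loss in mice alters glucose metabolism, was the only member called higher in the papilla gates. It stood at 9.49, 8.94 and 9.44 in R3, 9.36, 9.08 and 9.42 in R2, and 8.56, 8.71 and 8.52 in R1. Each R3 and R2 array was above each R1 array, and R3 and R2 overlapped. C1qtnf7 was 1.61-fold higher in R2 than in R1 (log2 change 0.69, standard error 0.17, adjusted p = 0.0273) and 1.61-fold higher in R3 than in R1 (log2 change 0.69, standard error 0.17, adjusted p = 0.02). The interval between R3 and R2 ran from -0.38 to 0.38 on the log2 scale.

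Both rises of C1qtnf7 were near the threshold. Between R2 and R1 the call failed without R2 replicate 2 (adjusted p = 0.0837), R2 replicate 5 (0.0848), R1 replicate 2 (0.0762) or R1 replicate 5 (0.0757), with adjusted p from 0.00159 to 0.0848 among the alternatives. That of R3 against R1 was lost without R3 replicate 2 (0.0701), R3 replicate 5 (0.065), R1 replicate 2 (0.0597) or R1 replicate 5 (0.0586), with adjusted p from 0.00151 to 0.0701.

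C1qtnf12, which encodes the insulin-sensitising fat hormone adipolin of mice, was higher in R1 with a wide spread in R3. Its main probe set read 7.80, 9.41 and 8.22 in R3, 8.50, 8.42 and 8.82 in R2, and 9.61, 9.69 and 9.51 in R1. The R3 array of mouse 4 stood apart from the other R3 arrays, but all R3 and R2 arrays were under all R1 arrays. The gene was 2.19-fold lower in R3 than in R1 (log2 change -1.13, standard error 0.34, adjusted p = 0.0453, lower in 3 of 3 mice). Against R1, the R2 level differed by -1.03 (standard error 0.34, adjusted p = 0.0802), which missed the threshold, and R3 differed from R2 by -0.10 with an interval from -0.86 to 0.66.

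The call of C1qtnf12 between R3 and R1 was kept without R3 replicate 4 (log2 change -1.60, adjusted p = 0.00094) and lost without any other single array. Without R3 replicates 2 and 5 in turn the adjusted p was 0.128 and 0.127, without R2 replicates 2, 4 and 5 it was 0.064, 0.0633 and 0.059, and without R1 replicates 2, 4 and 5 it was 0.104, 0.117 and 0.0833. With the mouse as a replicate block it was 0.0515, with the 6 arrays alone 0.0874 and with all probe sets tested singly 0.0615. Between R2 and R1 the gene passed without R3 replicate 2 (adjusted p = 0.0449), without R3 replicate 4 (0.00501), in the 6 arrays alone (0.00531) and among genes above the median gene (0.0452). Its adjusted p ranged from 0.00094 to 0.128 for R3 and from 0.00501 to 0.201 for R2 against R1. Averaging its 4 probe sets gave -0.69 for R3 and -0.63 for R2 against R1, the second with an adjusted p of 0.0454.

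C1qtnf4 (CTRP4), which unlike its relatives has tandem C1q domains and no collagen stalk, did not separate the gates. It stood at 6.48, 6.24 and 6.32 in R3, 6.25, 6.20 and 6.06 in R2, and 6.44, 6.24 and 6.10 in R1, overlapping in every comparison. The intervals of the log2 change were -0.12 to 0.48 for R3 against R2, -0.39 to 0.21 for R2 against R1 and -0.21 to 0.39 for R3 against R1. The probe set shared by Mfrp and C1qtnf5, genes that RefSeq places on the same stretch of chromosome 9, read 5.91, 5.91 and 5.99 in R3, 5.66, 5.91 and 5.78 in R2, and 6.15, 5.80 and 6.11 in R1. It was not called in any comparison when all probe sets were tested singly (adjusted p from 0.359 to 0.755), and its signal cannot be assigned to either gene. C1qtnf5 is known from a human late-onset retinal degeneration and Mfrp from retinal and eye growth disease.

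Against R1, 4 of 7 genes were called lower in R2 (6.16% of all genes) and 1 higher (6.89%), while in R3 5 were called lower (10.8% of all genes) and 1 higher (7.9%). The median log2 change of the 7 genes was -0.94 in R2 and -0.95 in R3, against -0.02 and -0.01 for all genes. Both comparisons use the same R1 arrays. The counts ranged from 4 to 6 in each comparison when arrays were left out in turn.

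Markers of several other cell types were lower in the same comparisons. In R2, 10 of 10 keratinocyte, 9 of 11 leukocyte and mast cell, 5 of 10 dermal fibroblast, 5 of 10 pericyte and smooth muscle, and 1 of 7 adipocyte markers were lower than in R1. In R3 the counts were 10 of 10, 8 of 11, 6 of 10, 6 of 10 and 5 of 7. Of the pericyte and smooth muscle markers, 2 of 10 were higher than in R1 in R3 and 2 of 10 in R2. Endothelial markers went both ways against R1, with 9 of 10 higher and 0 lower in R2, and 2 higher and 5 lower in R3. Schwann and glial markers did so too, with 5 of 8 lower and 0 higher in R2, and 6 of 8 higher and 0 lower in R3. Of these, the means of Cdh19, Foxd3 and Fabp7 were at or under the guide in R2, and those of Cdh19, S100b and Foxd3 in R1. Leukocyte and mast cell genes had a mean level of at most 7.27 in R3, from 7.02 to 7.50 in R2 and 8.96 to 9.43 in R1, and dermal fibroblast genes from 10.96 to 11.10 in R3, 11.40 to 11.52 in R2 and 12.35 to 12.36 in R1. Pericyte and smooth muscle genes ran from 8.32 to 8.45 in R3, 8.79 to 8.84 in R2 and 9.26 to 9.42 in R1, and adipocyte genes from 7.69 to 7.74 in R3, 8.30 to 9.004 in R2 and 9.18 to 9.40 in R1. The means of Dsg1a, Cd52, Adipoq and Lep were at or under the guide in R3 and R2, and that of Lep in R1 too. Adipoq read 6.80 on the R2 array of mouse 2, above the guide, against 4.09 and 3.66 on the other R2 arrays, and Cd52 read 5.51 on the R2 array of mouse 4. Dermal papilla markers were higher than in R1 for 9 of 12 genes in R2 and 11 of 12 in R3, and the beta-actin 3′ to 5′ difference was higher on every R3 (0.119 to 0.195) and R2 (0.106 to 0.216) array than on the R1 arrays (0.043 to 0.069). The Gapdh difference did not separate them, at 2.68 to 3.02 in R3, 2.57 to 2.85 in R2 and 2.63 to 2.97 in R1. The part of these other cells and of RNA quality in the members' changes was not tested.

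**Figure D3:**
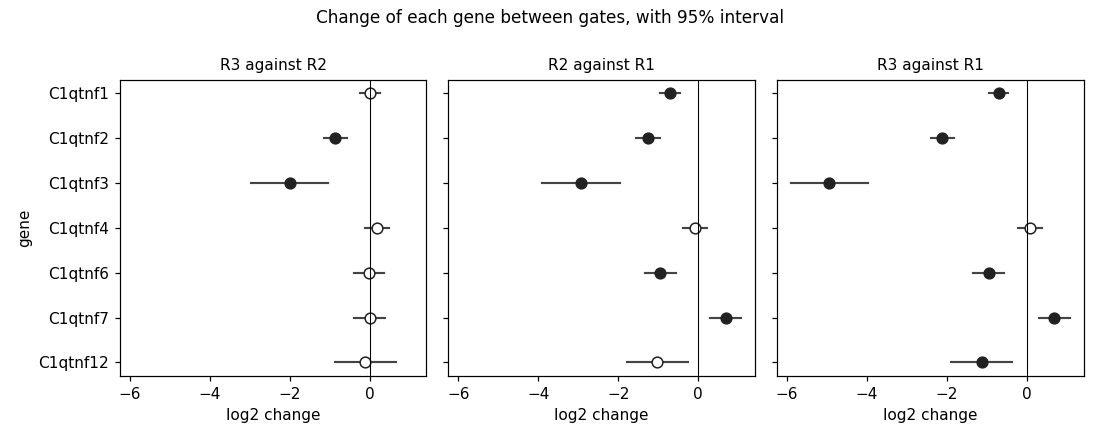
Log2 change of 7 C1q/TNF-related genes (rows) between gates, with 95% intervals of the limma fit; filled points have an adjusted p under 0.05. C1qtnf2 and C1qtnf3 are the filled points for R3 against R2, and C1qtnf7 is the only filled point right of 0 against R1.

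Of the 7 genes, 4 had several probe sets, which can target different transcript ends. The other C1qtnf1 probe set read 6.79, 6.79 and 7.05 in R3, 7.49, 7.48 and 7.45 in R2, and 8.03, 7.88 and 8.34 in R1. Unlike the main one it separated R3 from R2 without overlap, by -0.60, but missed the threshold over all probe sets (adjusted p = 0.0771). Against R1 it was lower in R2 by -0.61 (adjusted p = 0.036) and in R3 by -1.21 (adjusted p = 0.000873). The second C1qtnf7 probe set, at 6.02, 6.22 and 5.94 in R3, 5.95, 6.63 and 5.89 in R2, and 5.43, 4.75 and 4.39 in R1, showed the rise more steeply. Its log2 change against R1 was 1.20 in R3 (adjusted p = 0.021) and 1.30 in R2 (adjusted p = 0.0214), with R1 at or under the background guide.

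The probe sets of C1qtnf12 disagreed. The second brightest read 8.01, 7.66 and 7.90 in R3, 8.14, 8.10 and 7.98 in R2, and 8.98, 9.22 and 8.49 in R1. It gave no high value for mouse 4 in R3 and was lower than R1 in R3 by -1.04 (adjusted p = 0.00709) and in R2 by -0.82 (adjusted p = 0.0298). The third was lower without overlap but missed the threshold, by -0.75 in R3 (adjusted p = 0.0827) and -0.72 in R2 (adjusted p = 0.118). The dimmest showed changes of 0.15 and 0.07 with overlapping arrays (adjusted p = 0.703 and 0.892). The other C1qtnf4 probe set averaged 4.70 in R3, 4.40 in R2 and 4.65 in R1, under the guide in every gate.

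**Figure D4:**
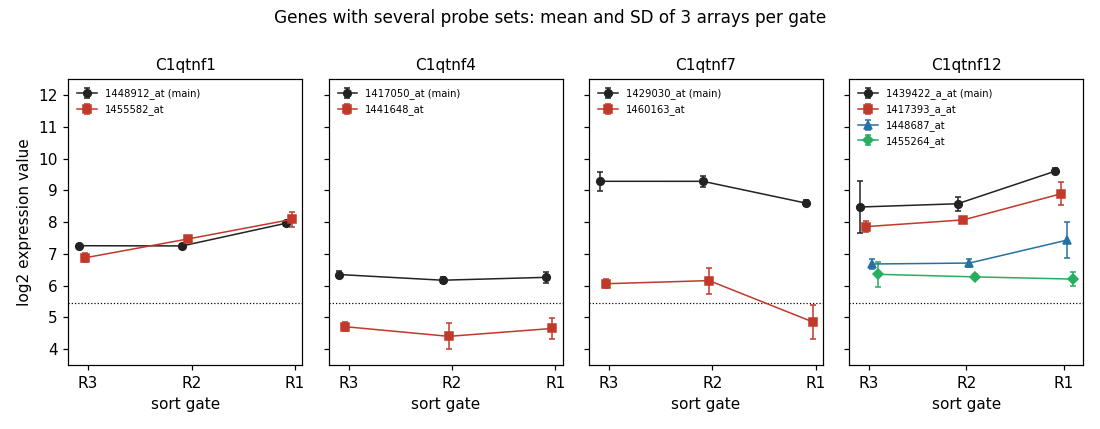
Mean log2 expression value with SD (y axis, n = 3 arrays) of every probe set of the 4 genes that have several, by sort gate (x axis); the dotted line is the highest background guide. The C1qtnf7 probe sets are both lowest in R1, and of the 4 C1qtnf12 probe sets the dimmest stays level while the others are highest in R1.

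The genes whose values ran most like each member were ranked by Pearson's r over the 9 arrays, a description in which the arrays of a gate share their sort. For C1qtnf3 these were Smim14 (r = 0.995), the guanine nucleotide exchange factor gene Dock11 (0.992) and the ribosomal protein gene Rps4x (0.991). Their scale differed, since Rps4x averaged 13.07 in R3, 13.16 in R2 and 13.27 in R1. For C1qtnf2 they were the gelatinase gene Mmp2, the proteoglycan gene Srgn and the potassium channel gene Kcnj8 (each 0.992). For C1qtnf1 they were the epidermal kinase gene Ripk4 (0.994), the matrix gene Thbs2 (0.990) and the ceramidase gene Acer3 (0.989). Acer3 (0.978) was also nearest to C1qtnf6, before the stem cell receptor gene Lgr5 (0.970) and Abhd17c (0.969).

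The nearest genes to C1qtnf7 were Fam199x (0.942), Swap70 (0.940) and the calcium pump gene Atp2c1 (0.939). Those to C1qtnf12 were Gnb1l (0.956), the transcription factor gene Etv4 (0.944) and the lipid droplet gene Plin5 (0.939). Those to C1qtnf4 were the kinase gene Camk2d (0.960), Cyp2f2 (0.925) and Dnajb2 (0.921), beside differences between gates that were not called for C1qtnf4. Cyp2f2 averaged 3.00 in R3, 2.72 in R2 and 2.95 in R1, and Gnb1l 4.37, 4.46 and 4.93. Both were under the background guide in every gate, which limits what their r can mean.

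Of 23 other genes whose proteins hold a C1q domain, 20 were measured. In R3 against R2, 1 was called higher (1.97% of all genes) and 3 lower (3.06%). The median log2 change was 0.10, against -0.01 for all genes. The means of 8 of the 20 genes were at or under the guide in R3, of 7 in R2 and of 7 in R1. These included C1ql2, Cbln3, Cbln4 and Col10a1 in every gate, and the medians given for this list count such dim genes. C1ql3, a synaptic ligand of the adhesion receptor Adgrb3, stood at 8.44, 8.54 and 8.97 in R3, 3.96, 5.38 and 4.74 in R2, and 5.79, 5.31 and 5.94 in R1. It was highest on all R3 arrays, its R2 mean was under the guide, and R3 and R1 did not overlap, with a log2 change of 3.96 against R2 (adjusted p = 0.000137) and 2.97 against R1 (adjusted p = 0.000261). Schwann and glial markers were higher in R3 in the same comparisons, in 8 of 8 genes against R2 and 6 of 8 against R1. Of 12 dermal papilla markers, 3 were higher and 1 lower against R2, and 11 were higher and 0 lower against R1. The part of either cell type in the changes of C1ql3 was not tested.

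C1qtnf9, a close relative of adiponectin, and the multimerin genes Mmrn1 and Mmrn2, known from endothelium, were lower in R3 than in R2. C1qtnf9 stood at 3.41, 3.13 and 3.94 in R3, 6.75, 6.72 and 6.81 in R2, and 4.00, 4.40 and 4.35 in R1. Every R2 array was above the guide and every R3 and R1 array under it. The log2 change of C1qtnf9 was -3.27 for R3 against R2 (adjusted p = 2.29e-05) and 2.51 for R2 against R1 (adjusted p = 6.51e-05). Mmrn1 stood at 5.64, 5.88 and 4.72 in R3, 9.08, 9.69 and 9.40 in R2, and 8.14, 8.20 and 7.97 in R1. Mmrn2 stood at 5.00, 5.23 and 5.63 in R3, 8.11, 8.03 and 7.63 in R2, and 4.86, 4.87 and 5.47 in R1. Both multimerin genes were thus highest in R2, with R3 near or under the guide. The change of R3 against R2 was -3.98 for Mmrn1 (adjusted p = 5.02e-05) and -2.64 for Mmrn2 (adjusted p = 0.000162). A second Mmrn1 probe set gave -0.22 (adjusted p = 0.523 over all probe sets). All 10 endothelial markers were lower in R3 than in R2, and 9 of 10 were higher in R2 than in R1. The part of endothelial cells in the changes of C1qtnf9, Mmrn1 and Mmrn2 was not tested.

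In R2 against R1, 4 of these 20 genes were called higher (6.89% of all genes) and 1 lower (6.16%), with a median log2 change of 0.09. In R3 against R1, 3 were higher (7.9% of all genes) and 4 lower (10.8%), with a median of 0.34. Cbln1, a secreted organiser of synapses, was 3.72-fold higher in R2 (adjusted p = 0.00248) and 4.34-fold higher in R3 (adjusted p = 0.000924) than in R1. The other Cbln1 probe sets changed by 1.56 and 1.24 in R2 without a call over all probe sets (adjusted p = 0.136 and 0.257). In R3 they were called, at 2.10 and 2.14 (adjusted p = 0.0384 and 0.0424). Mmrn1 and Mmrn2 were higher in R2 than in R1 by 1.29 and 2.85 on the log2 scale. Without R2 replicate 4 Mmrn1 did not pass (adjusted p = 0.0603). The second Mmrn1 probe set was not called against R1 over all probe sets. It changed by 0.32 in R2 (adjusted p = 0.211) and by 0.10 in R3 (adjusted p = 0.708), where the main one gave -2.69. Emilin2, Adipoq and Col8a2 are named after their values were seen, to complete these counts. Emilin2, an extracellular matrix protein, was lower by -0.61 in R2 (adjusted p = 0.0218) and by -0.87 in R3 (adjusted p = 0.0027). Adiponectin itself (Adipoq) was lower by -2.97 in R3 (adjusted p = 0.0131) and Col8a2 higher by 1.52 in R3 (adjusted p = 0.0284). C1qtnf9 and Mmrn1 made up the other calls lower in R3, of which that of C1qtnf9 compares levels that are both under the guide (adjusted p = 0.0281). The C1qtnf9 call failed without R3 replicate 2 (0.0814) or 4 (0.0924) or R1 replicate 4 (0.0923) or 5 (0.0776), and in the 6 arrays alone (0.0651), within 0.00513 to 0.0924 over its alternatives.

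Of 13 genes for receptors and processing, 12 were measured. In R3 against R2, 1 was called higher (1.97% of all genes) and 0 lower (3.06%), with a median log2 change of 0.02. Adgrb3, the receptor of C1q-like proteins, stood at 8.16, 7.67 and 8.59 in R3, 7.11, 6.31 and 7.11 in R2, and 3.99, 4.01 and 3.60 in R1. The gates did not overlap, in the order R3 over R2 over R1, with R1 under the guide. Its log2 change was 1.30 in R3 against R2 (adjusted p = 0.0278), 2.98 in R2 against R1 (adjusted p = 0.000137) and 4.28 in R3 against R1 (adjusted p = 1.27e-05). The R3 to R2 call was lost without R3 replicate 2 (adjusted p = 0.084), R3 replicate 5 (0.0745) or R2 replicate 4 (0.0797), and in the 6 arrays alone (0.064), with adjusted p from 0.0217 to 0.084.

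Against R1, 3 of the 12 were called higher in R2 (6.89% of all genes) and 0 lower (6.16%), with a median log2 change of 0.17. In R3, 1 was higher (7.9% of all genes) and 1 lower (10.8%), near those shares, with a median of 0.18. The adiponectin receptor gene Adipor2 was 1.56-fold higher in R2 than in R1 (adjusted p = 0.0156), a call lost without R2 replicate 2 (0.0588) or R1 replicate 4 (0.0521) and in the mean of its probe sets (0.0798, log2 change 0.35 against 0.65 on the main one). Cdh13, which encodes T-cadherin, a membrane binder of adiponectin, was 2.04-fold higher in R2 (adjusted p = 0.0166), a call lost without R2 replicate 2 (0.0597), R1 replicate 2 (0.0605) or R1 replicate 5 (0.0537). The other Cdh13 probe sets changed by 0.13 to 1.08 on the log2 scale and were not called over all probe sets (adjusted p from 0.0695 to 0.775). The relaxin receptor gene Rxfp1 was lower in R3 than in R1 by -1.39 (adjusted p = 0.0367), a call lost in 8 of its 16 alternatives with an adjusted p up to 0.119. It read 5.43, 5.26 and 4.09 in R3, 5.43, 5.39 and 4.88 in R2, and 6.75, 5.58 and 6.64 in R1, so that the R3 mean was under the highest guide while 2 of 3 R3 arrays were above their own. Its call was lost without R3 replicate 4 (0.0553) or 5 (0.0954), R2 replicate 2 (0.0515) or 4 (0.0531), or R1 replicate 2 (0.119) or 5 (0.106), in the 6 arrays alone (0.0711) and with all probe sets tested singly (0.0506).

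**Figure D5:**
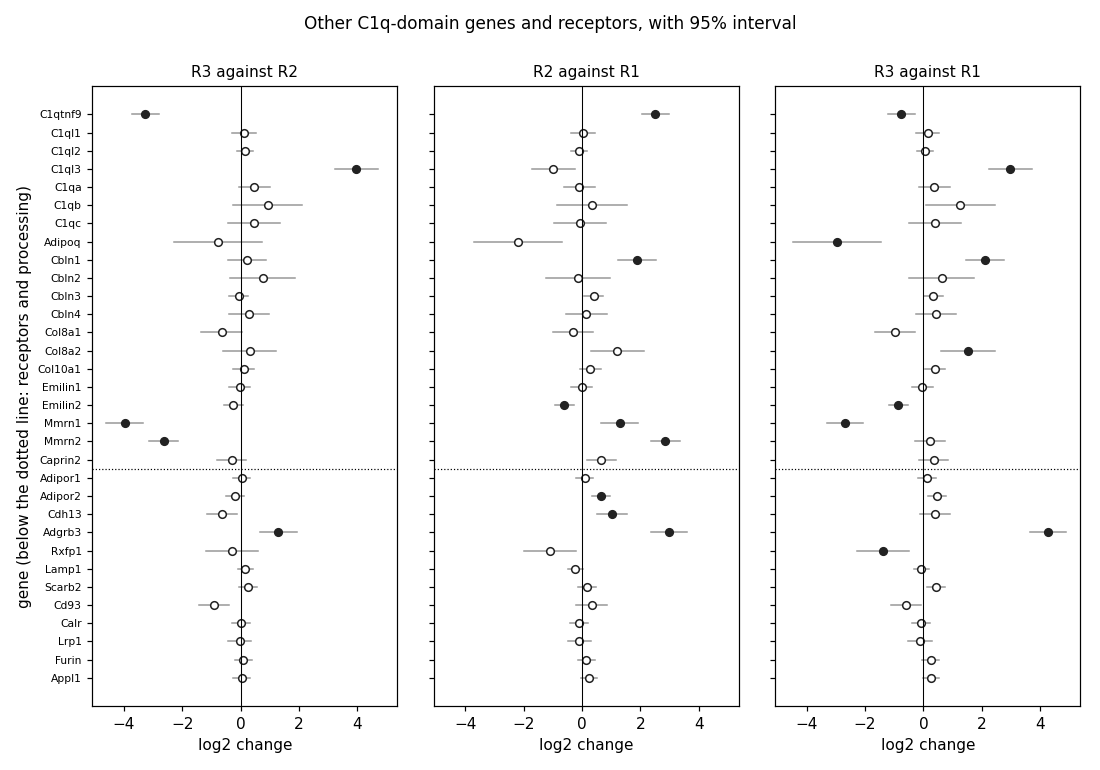
Log2 change with 95% interval of 20 other C1q-domain genes and, below the dotted line, 12 receptor and processing genes (rows) between gates; filled points have an adjusted p under 0.05. C1ql3 and Adgrb3 lie right of 0 for R3 against R2, while C1qtnf9, Mmrn1 and Mmrn2 lie left of it.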

How the data were processed

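The authors deposited log2 expression values per probe set; the submitters' processing notes name RMA, with no version or software given in the sources used here. Per the labels' protocols, RNA was amplified with the WT-Ovation Pico system before hybridisation, and amplification and quantile scaling can compress differences. No scanner files were used here. Of 45101 probe sets, 34958 carried 1 gene symbol, 932 several and 9211 none; 64 control probe sets and those with several symbols took no part in gene tests. For 18193 genes the brightest probe set on average stood for the gene, and dim values were not filtered. A linear model with 1 coefficient per gate over the 9 arrays was fitted by limma 3.58.1 (lmFit and eBayes, under R 4.3.3), with p-values Benjamini-Hochberg adjusted over all genes, and called under 0.05. The code was tested on simulated data with known answers. Tables and plots used Python 3.11.15, pandas 2.3.3 and matplotlib 3.10.9.

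The members, companion lists and markers were chosen with earlier results of these data known. Named were all members, the 3 companion genes with the lowest p per list and comparison, and the 3 genes most like each member. Per the labels, arrays that share a number share a mouse, so they are paired. Their deviations from gate means correlated at 0.007 to 0.177, against -0.157 to 0.041 between mice. These ranges are not independent, since deviations from a gate's mean cancel out within that gate. Precision is limited by having 3 arrays in each gate. The alternatives were the mouse as a block, leaving out each array, the 6 arrays of a comparison alone, median centring, quantile normalization again, a trend and robust variance, genes above the median gene only, the mean over a gene’s probe sets, and all probe sets tested singly.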

Additional observations from a re-analysis of the deposited data

How the results depend on the processing

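The members called in R3 against R2 numbered 1 or 2 when each of the 9 arrays was left out in turn (1 without R3 replicate 2 or 4 or R2 replicate 2 or 5), and 1 when the 6 arrays of the comparison were fitted alone; C1qtnf2 stayed called in each. Without each array in turn the genes called numbered 582 to 841 for R3 against R2 (592 without R3 replicate 4, 596 without R2 replicate 2, 582 without R2 replicate 4), against 915 with all arrays, and 1554 (without R2 replicate 4) to 2418 for R2 against R1, against 2375. They numbered 2519 to 3240 for R3 against R1, against 3406. With the mouse as a replicate block, the paired fit called 881, 2431 and 3494 genes and 2, 5 and 5 members in R3 against R2, R2 against R1 and R3 against R1. The block ended the call of C1qtnf12 in R3 against R1 (adjusted p = 0.0515) and made that of Adipor2 there (adjusted p = 0.0428), and it changed no other call of a member or of the companion genes named by rule. No called gene among these turned its direction under any of the alternatives. With only genes above the median gene tested, which drops dim genes, 1 other C1q-domain gene was called in R3 against R2, against 4. Signal near background limits C1qtnf3 in R3, the dimmer C1qtnf4 and C1qtnf7 probe sets, and C1qtnf9 outside R2. The causes of the other shifts were not tested.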

Other observations

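Cd93, which encodes an endothelial receptor that binds multimerin-2, was not called on its brightest probe set (R3 against R2 log2 change -0.92, limma adjusted p = 0.056; R2 against R1 0.32, adjusted p = 0.424). Of its 4 other probe sets, 3 changed by -3.52 to -3.98 between R3 and R2 (adjusted p from 6.39e-06 to 0.000722 over all probe sets) and by 1.69 to 1.95 between R2 and R1 (adjusted p from 0.000246 to 0.0251). Averaged over its probe sets, the gene changed by -2.66 in R3 against R2 (adjusted p = 1.41e-06) and by 1.26 in R2 against R1 (adjusted p = 6.6e-05). The call of this gene therefore depends on the choice of probe set, beside the lower values of all 10 endothelial markers in R3 than in R2.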
